A study of Homo sapiens with 6 samples.

Results

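Protein lipoylation attaches lipoate, a sulfur-containing cofactor made from octanoate, to a lysine of a few mitochondrial enzymes. The lipoyl group swings between the active sites of the pyruvate, alpha-ketoglutarate and branched-chain ketoacid dehydrogenase complexes and of the glycine cleavage system, so these enzymes do not work without it. CLPX and CLPP form CLPXP, a protease of the mitochondrial matrix in which CLPX unfolds proteins and CLPP cuts them. POLDIP2 is partly a mitochondrial protein, and it has been linked to lipoylation through CLPXP and ACSM1, an acyl-CoA synthetase of the matrix that can activate lipoate.

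The 10 genes examined here were given by name, as genes of lipoylation together with CLPX, CLPP and ACSM1. They were named by their roles, at a point when earlier results of these data were known. All 10 were found among the 37902 genes of the deposited table. LIAS, LIPT1 and LIPT2 make or transfer the lipoyl group, DLAT, DLST, DBT and GCSH encode proteins that carry it, and ACSM1, CLPX and CLPP complete the set.

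RNA was sequenced from 2 groups of ARPE-19 cells, an established human line from the retinal pigment epithelium (RPE), under regular maintenance at day 3. WT is the parental line, and POLDIP2 KO was made with a lentivirus carrying SpCas9 and an sgRNA against POLDIP2, puromycin selection and expansion of the transduced cells, with no cloning step described. No control virus is described for WT, so effects of transduction and selection cannot be told apart from those of the knockout. POLDIP2 KO is 1 line, and each group has 3 libraries that the labels call biological replicates, so p values measure the spread between cultures of that line only. Values are normalised counts, which are reads per gene divided by a size factor of the library, and the reads recovered from them numbered 31532797 to 45795509 per library. Of 11 RPE markers, 8 had more than 3 reads in some library, while RPE65 and TTR were listed at 0 throughout and TYR never passed 3 reads. The summed normalised count of 5 markers of other cell types was 5.22 to 17 in WT and 25.8 to 33.4 in POLDIP2 KO, none of the 5 passed 22 reads in any library, and the part of this in the results was not tested. The summed RPE markers reached 71743 to 82333 in WT and 67397 to 89462 in POLDIP2 KO, nearly all of it from the keratins KRT8 and KRT18. KRT8 ranged from 34222 to 48481 over the libraries, KRT18 from 29007 to 35762, MITF from 2955 to 4503 and OTX2 from 574 to 883. RLBP1, PMEL and TYRP1 ranged from 1.04 to 103. In such bulk RNA, fewer cells of a kind and less RNA per cell cannot be told apart. Where 3 values follow each other, they are the libraries numbered 1, 2 and 3. POLDIP2 itself stood at 3919, 4827 and 4798 normalised counts in WT against 1063, 1248 and 1143 in POLDIP2 KO, so every library followed its label.

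The bases that encode the lipoylated lysine show what the acceptor proteins share. They were read from GENCODE release 44 transcripts (GRCh38) as 27 coding bases, 5′ to 3′ on the coding strand, with the codon of the lysine that carries lipoate in capitals. PDHX, a binding subunit of the pyruvate dehydrogenase complex that is lipoylated too, is shown beside the acceptors given by name.
DLAT, codon 132, chr11:112028515-112028541 (plus strand, exon 3): gttgaaactgatAAAgccactgttgga
DLAT, codon 259, chr11:112033506-112037274 (plus strand, across exons 5 and 6): atagaaactgacAAAgccactataggt
PDHX, codon 97, chr11:34947541-34947567 (plus strand, exon 3): attgagactgacAAAgctgtggttacc
DLST, codon 110, chr14:74889938-74891067 (plus strand, across exons 6 and 7): attgaaactgacAAGacatctgtgcag
DBT, codon 105, chr1:100230839-100230865 (minus strand, exon 4): gttcaaagtgatAAAgcttctgttacc
GCSH, codon 107, chr16:81084554-81084580 (minus strand, exon 4): ttggaaagtgtgAAAgctgctagtgaa
The DLAT sites are the most alike pair, with 21 of 27 bases identical, and DLST and GCSH are the least alike, with 13 of 27. Sites were found by searching the translated bases for a short amino acid motif set for each gene. Both DLAT sites met the same motif, while DLST and GCSH had different ones, so the search set part of this order. DLST is the only one of these sites with AAG in place of AAA.

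The comparison of POLDIP2 KO with WT asked whether loss of POLDIP2 goes with a change in the RNA of its lipoylation partners. The data hold RNA only, so the amounts of these proteins, their lipoylation and the activity of CLPXP were not tested. It used limma on log2(normalised count + 1) for the 14684 genes whose mean normalised count was 10 or more. Benjamini-Hochberg adjustment ran over all of them, and a gene was called when its adjusted p value was under 0.05 and it changed by more than 1.5-fold. The added count understates fold changes of low genes. Of the 10 genes, 9 passed the filter and ACSM1 did not. None of the 9 was called higher or lower, against 0.170% of all tested genes (25 of 14684, with 0.0817% higher and 0.0885% lower), and the smallest limma adjusted p value among them was 0.933. At an unadjusted p value under 0.05, 0 of the 9 passed against 6.48% of all tested genes (3.00% higher and 3.47% lower). The edgeR quasi-likelihood test on the recovered reads also gave 0 of 9 at that limit, against 6.52% of all tested genes, and DESeq2 gave 0 of 9 against 7.08%. Over the 9 genes the log2 fold change had a median of 0.071, against 0.000 over all tested genes. It was above 0 for 7 of the 9 and below for 2, against 7334 above and 7350 below over all tested genes. POLDIP2 had a log2 fold change of -1.97 in the same fit (95% confidence interval -2.26 to -1.67, limma adjusted p = 0.00961), although its limma adjusted p value was 0.0558 to 0.0886 when replicate 2 or 3 of either line was left out.

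**Figure D1:**
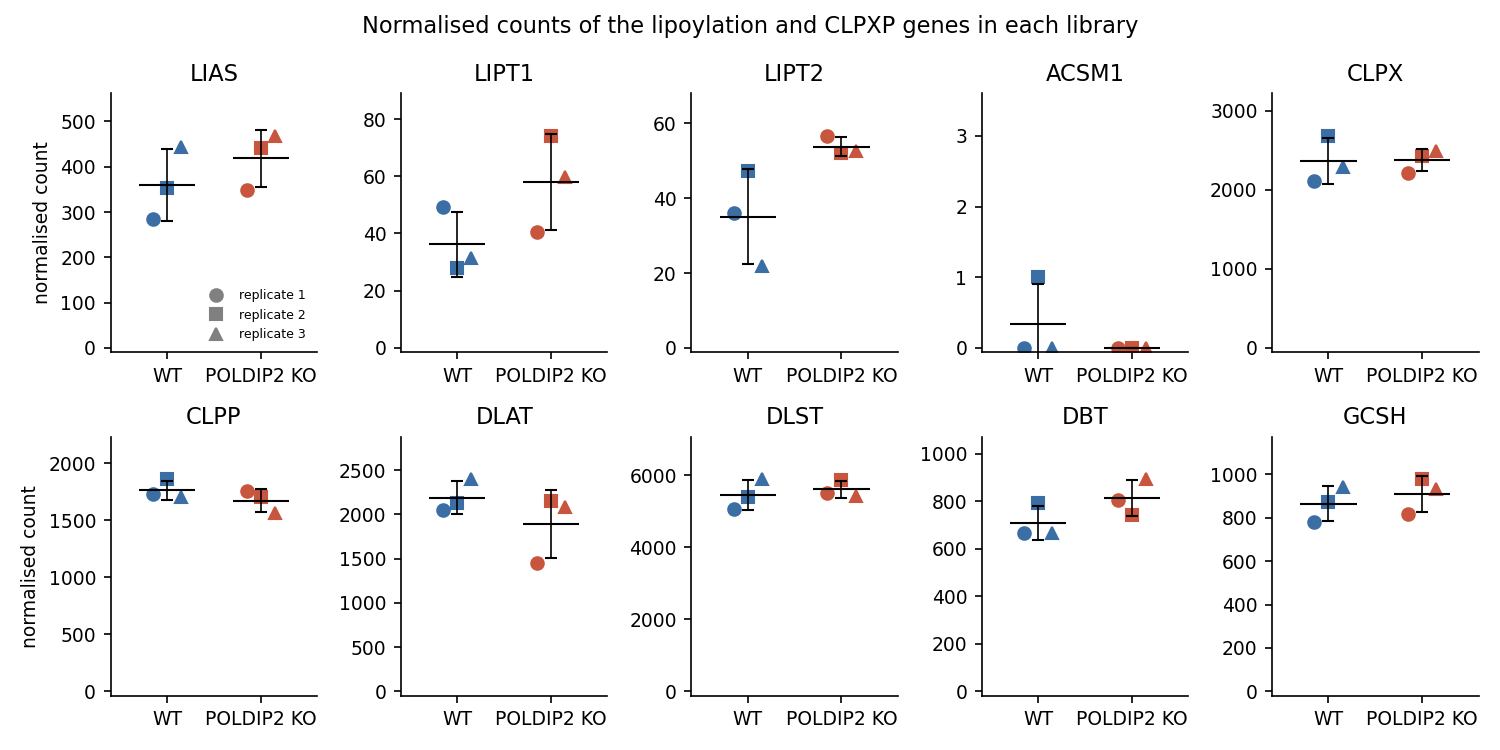
Normalised count (y axis, linear from 0, with its own scale in each panel) of the 10 genes in the 3 WT libraries (blue) and the 3 POLDIP2 KO libraries (red). Symbols mark the replicate number, the line is the mean and the bar is ± 1 SD. The libraries of the lines overlap for every gene but LIPT2, and ACSM1 has at most 1 read in any library.

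LIAS, lipoyl synthase, inserts the sulfur atoms into the octanoyl chain with iron-sulfur clusters (chromosome 4, 39459004 to 39485109, plus strand). Its normalised counts were 284, 354 and 443 in WT against 348, 441 and 468 in POLDIP2 KO. The lines overlapped, and replicate 1 was the lowest library in both. The log2 fold change was 0.23 with a 95% confidence interval from -0.28 to 0.73, which leaves room for a rise of up to 1.66-fold and a fall to 0.826 of WT (limma adjusted p = 1). All 3 differences between same-numbered libraries were above 0, at 0.29, 0.32 and 0.08 on the log2 scale, and a fit blocked on that number gave an interval of -0.11 to 0.56 (limma adjusted p = 0.627).

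LIPT2, the octanoyltransferase that loads the octanoyl chain onto GCSH, was the member with the smallest p value (chromosome 11, 74490519 to 74493724, minus strand). It had 35.9, 47.2 and 21.9 normalised counts in WT against 56.6, 52.1 and 52.6 in POLDIP2 KO. All 3 POLDIP2 KO libraries lay above all 3 WT libraries, which held for 5.46% of all tested genes, with 5.44% the other way and 10.9% in all. The mean was 35 ± 12.6 in WT and 53.8 ± 2.45 in POLDIP2 KO (± SD, n = 3 libraries each). LIPT2 thus had a log2 fold change of 0.67 with an interval from -0.19 to 1.53, which did not pass (unadjusted p = 0.107, limma adjusted p = 0.933, exact two-sided permutation p = 0.1, the smallest that 3 against 3 allows). Leaving out WT replicate 3, the lowest library, brought the log2 fold change to 0.38. LIPT2 overlaps the lncRNA LIPT2-AS1 on the other strand, which is not analysed here.

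LIPT1, the lipoyltransferase that moves lipoate from GCSH to the dehydrogenase subunits, had the same fold change as LIPT2 with more overlap (chromosome 2, 99154955 to 99163157, plus strand). Its normalised counts were 49.1, 28.1 and 31.3 in WT against 40.6, 74.1 and 59.6 in POLDIP2 KO. WT replicate 1 was higher than POLDIP2 KO replicate 1, so the order of the lines differed between replicate numbers. The log2 fold change was 0.67 with an interval from -0.22 to 1.55 (limma adjusted p = 0.955, exact permutation p = 0.2). LIPT1 shares 180 of its 2279 exon bases with ENSG00000273155, a longer gene on the same strand with 132 to 197 reads per library, and reads from those bases can be assigned to either. With both genes summed, an alternative chosen after seeing the data in which the longer gene gives most of the reads, the mean was 213 ± 32.9 in WT and 213 ± 10.7 in POLDIP2 KO (± SD, n = 3 libraries each). For the sum, the log2 fold change was 0.01, with an interval from -0.43 to 0.46. ENSG00000241962, another gene on that strand that spans LIPT1, had 7, 24 and 12 reads in WT against 17, 37 and 28 in POLDIP2 KO. ENSG00000241962 was not part of the sum, and its exon bases were not compared with those of LIPT1.

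ACSM1 was the one gene of the set with next to no reads (chromosome 16, 20623235 to 20698890, minus strand). It had 0, 1 and 0 reads in WT against 0 reads in each POLDIP2 KO library, which is 1 read over the 6 libraries. A count of 0 over the 3 POLDIP2 KO libraries allows a level of up to 0.0259 RPM (reads scaled to the library total), while LIPT2, the next gene in order of level, had a mean of 1.18 RPM. DNAJA3 and HSD17B8, which most cells use, were also listed at 0 in every library, so a listed 0 is not read here as absence of the RNA. Such limits cover counting error only, and no fold change is given because both lines were at or under 3 reads. ACSM1 lies within ACSM3 on the opposite strand, which had 28.3 to 127 normalised counts. The 250 bases before the RefSeq start of ACSM1 are printed beside those of CLPX, a gene of the set that was transcribed in every library, 5′ to 3′ on the strand of the gene (GRCh38.p14), with each CG dinucleotide in capitals.
ACSM1, chr16:20691257-20691506 (minus strand): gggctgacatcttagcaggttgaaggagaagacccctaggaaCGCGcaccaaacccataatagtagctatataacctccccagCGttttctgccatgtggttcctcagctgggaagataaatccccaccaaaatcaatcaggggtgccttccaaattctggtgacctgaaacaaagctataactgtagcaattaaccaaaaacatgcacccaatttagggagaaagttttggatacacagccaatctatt
CLPX, chr15:65185343-65185592 (minus strand): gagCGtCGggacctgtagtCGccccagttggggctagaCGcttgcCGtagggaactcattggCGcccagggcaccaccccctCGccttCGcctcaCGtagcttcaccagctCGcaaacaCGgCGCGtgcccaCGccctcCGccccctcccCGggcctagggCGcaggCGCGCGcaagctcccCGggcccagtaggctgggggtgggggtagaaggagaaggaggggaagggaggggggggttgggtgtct
The ACSM1 window lies inside the GENCODE span of the gene, whose minus-strand start is 20698890. The CLPX window lies just before its gene, so the windows are not placed alike. The ACSM1 window holds 3 CG dinucleotides and the CLPX window 21. RefSeq promoters were found for 9 of the 10 genes, all but CLPP, and the other 8 held 12 to 24, against a median of 11 over 35116 promoters of the same length. As many CG dinucleotides as in CLPX, or more, were present in 30.2% of those promoters, and as few as in ACSM1, or fewer, in 29.3%. This is a description of the windows, read on one strand because CG is its own reverse complement.

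CLPX, the unfoldase of CLPXP, differed least between the lines (chromosome 15, 65148219 to 65185342, minus strand). Normalised counts were 2116, 2682 and 2294 in WT against 2218, 2431 and 2486 in POLDIP2 KO. The POLDIP2 KO values fell inside the range of WT. This gave a log2 fold change of 0.01 with an interval from -0.27 to 0.30, or from 0.828 to 1.23 of WT (limma adjusted p = 1).

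CLPP, the peptidase of the pair, was also close between the lines (chromosome 19, 6361531 to 6370242, plus strand). It had 1726, 1857 and 1699 normalised counts in WT against 1753, 1699 and 1564 in POLDIP2 KO. Its log2 fold change was -0.08 with an interval from -0.32 to 0.17, or from 0.803 to 1.12 of WT (limma adjusted p = 1). The ratio of the CLPX to the CLPP normalised count within a library, which does not depend on the scaling of libraries, was 1.23, 1.44 and 1.35 in WT against 1.27, 1.43 and 1.59 in POLDIP2 KO. On the log2 scale the mean ratio was 0.42 ± 0.119 in WT and 0.51 ± 0.165 in POLDIP2 KO (± SD, n = 3 libraries each), and the difference of 0.09 was smaller than the spread in either line (exact two-sided permutation p = 0.5).

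**Figure D2:**
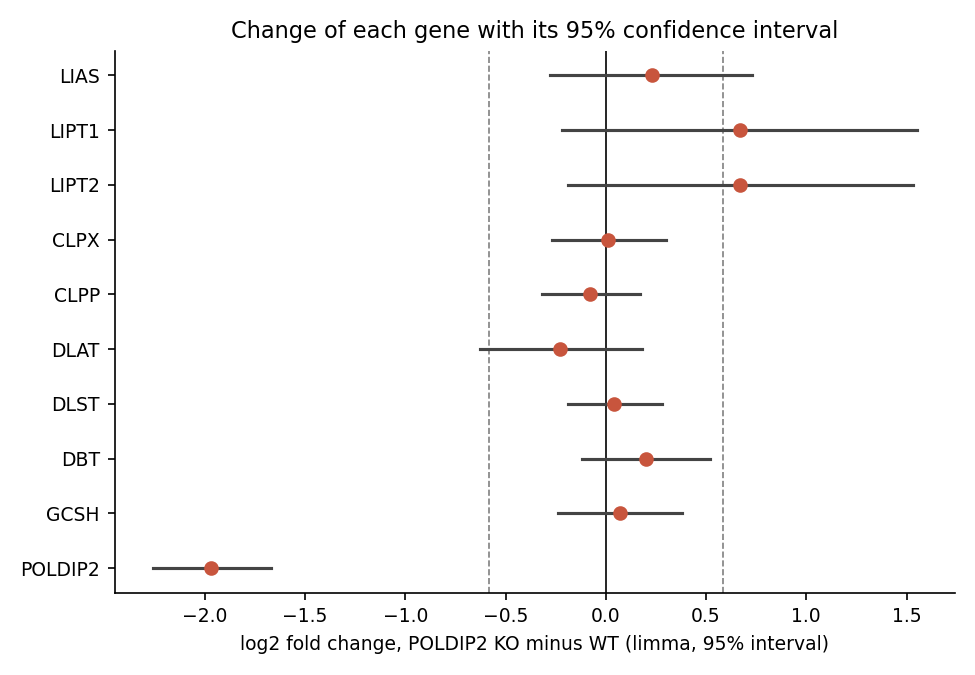
Log2 fold change of POLDIP2 KO against WT (x axis, points) with the limma 95% confidence interval (bars) for the 9 tested genes and POLDIP2, with dashed lines at a fold change of 1.5 in either direction. The intervals of all 9 genes cross 0, and that of POLDIP2 runs from -2.26 to -1.67.

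DLAT, the lipoylated acyltransferase of the pyruvate dehydrogenase complex, had the largest decrease in value (chromosome 11, 112025408 to 112064404, plus strand). Its normalised counts were 2043, 2124 and 2394 in WT against 1454, 2149 and 2080.2 in POLDIP2 KO. POLDIP2 KO replicate 1 was the lowest library, and the other two lay within the range of WT. DLAT thus had a log2 fold change of -0.23 with an interval from -0.63 to 0.18 (limma adjusted p = 1), and without POLDIP2 KO replicate 1 it was -0.05.

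DLST, the acyltransferase of the alpha-ketoglutarate dehydrogenase complex, was the most abundant of the set (chromosome 14, 74881891 to 74903743, plus strand). It had 5057, 5381 and 5883 normalised counts in WT against 5511, 5877 and 5424 in POLDIP2 KO. All 3 POLDIP2 KO libraries lay within the range of WT. Its log2 fold change was 0.04 with an interval from -0.19 to 0.28 (limma adjusted p = 1).

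DBT, the acyltransferase of the branched-chain ketoacid dehydrogenase complex, had 665, 792 and 667 normalised counts in WT against 805, 744 and 892 in POLDIP2 KO (chromosome 1, 100186919 to 100249834, minus strand). In WT, replicate 2 was the highest library, and in POLDIP2 KO replicate 2 was the lowest, so the lines overlapped there. The mean was 708 ± 72.5 in WT and 813 ± 74.2 in POLDIP2 KO (± SD, n = 3 libraries each), with a log2 fold change of 0.20 and an interval from -0.12 to 0.52 (limma adjusted p = 1, exact permutation p = 0.2).

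GCSH, the lipoylated carrier of the glycine cleavage system, receives the first octanoyl group in the pathway (chromosome 16, 81081945 to 81096395, minus strand). Normalised counts were 782, 872 and 941 in WT against 817, 976 and 933 in POLDIP2 KO. Replicate 1 was the lowest library of both lines. For GCSH the log2 fold change was 0.07 with an interval from -0.24 to 0.38 (limma adjusted p = 1). The processed pseudogene GCSHP5 held 209 to 435 reads per library, and 2 longer same-strand genes share exon bases with GCSH. With these reads added to GCSH, again chosen after seeing the data, the log2 fold change was 0.07.

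For CLPX, CLPP, DLST, DBT and GCSH the 95% interval lay within a 1.5-fold change in either direction, and this held for 47.5% of all tested genes. For LIAS, LIPT1, LIPT2 and DLAT it did not. In the fit blocked on the replicate number the intervals of LIAS (-0.11 to 0.56) and DLAT (-0.54 to 0.09) also lay within 1.5-fold, while those of LIPT1 (-0.36 to 1.70) and LIPT2 (-0.19 to 1.53) did not. The intervals of LIPT1 and LIPT2 were the widest of the set and their reads the fewest, at 28 to 91 and 21 to 64 per library.

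By replicate number, LIAS and LIPT2 were higher in POLDIP2 KO in all 3 pairs of libraries, and no gene of the set was lower in all 3. Over all tested genes, 17.0% were higher in all 3 pairs and 15.7% lower, or 32.7% in all. LIPT1 had the widest range of pair differences, with -0.27, 1.37 and 0.91 on the log2 scale for replicates 1, 2 and 3. The pair differences of LIPT2 were 0.64, 0.14 and 1.23, and those of DLAT were -0.49, 0.02 and -0.20. In the blocked limma fit, 0 of the 9 genes were called and 0 had an unadjusted p value under 0.05, against 0.204% called and 11.1% unadjusted over all tested genes. LIAS, CLPX, DLAT and GCSH had their lowest value in replicate 1 in both lines, which is 4 of 9 genes and compares with 20.5% of all tested genes. In LIAS, replicate 1 differed from the mean of replicates 2 and 3 by -0.48 in WT and -0.38 in POLDIP2 KO on the log2 scale, which is a wider gap than that between the lines.

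**Figure D3:**
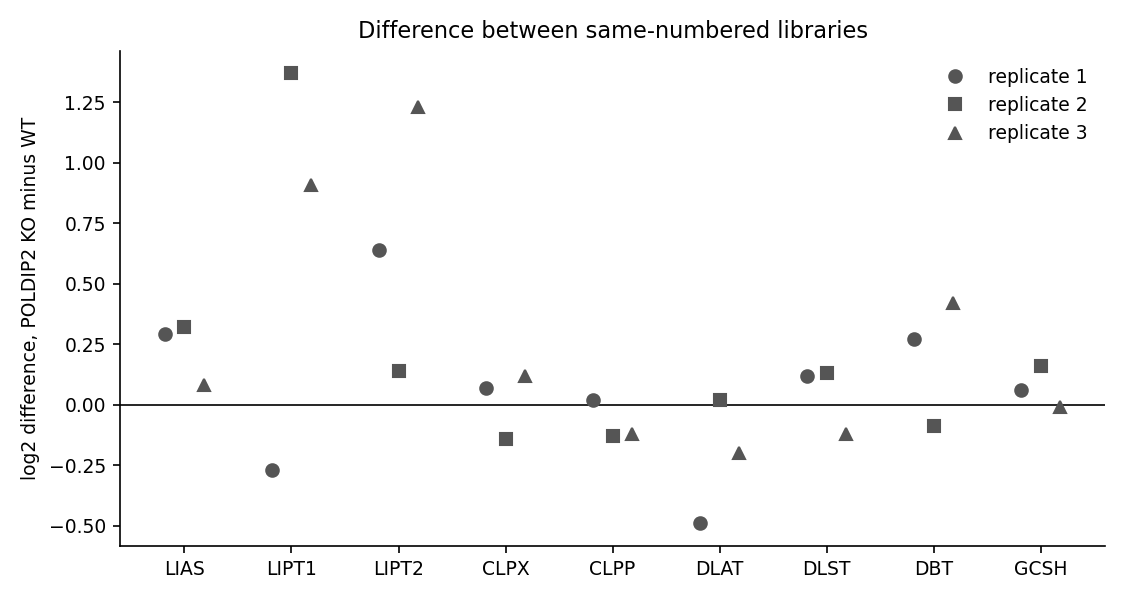
Difference in log2(normalised count + 1), POLDIP2 KO minus WT, between libraries with the same replicate number (y axis) for the 9 tested genes (x axis), 1 symbol for each number. LIAS and LIPT2 have all 3 symbols above 0, and LIPT1 spans -0.27 to 1.37.

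Levels of different genes were compared per kb of exon length, with all annotated exons of a gene merged. On this scale DLST led with 1112 to 1293 normalised counts per kb over the 6 libraries, above every other gene of the set in every library. CLPP followed with 443 to 526 and CLPX with 387 to 491, and the ranges of these neighbours overlapped. DLAT had 193 to 317 and GCSH 215 to 268, again overlapping. DBT had 57.3 to 76.8, LIAS 25.1 to 41.3, LIPT1 12.3 to 32.5 and LIPT2 9.25 to 23.9, and LIAS overlapped LIPT1, which overlapped LIPT2, while DBT stood clear of LIAS. On merged exons, the RNAs of the proteins that carry lipoate and of the protease were above those of the enzymes that make and transfer it in all 6 libraries, but with the longest transcript as the length LIAS moved above DBT, at means of 94.7 and 70.4 normalised counts per kb. The other genes kept their places.

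**Figure D4:**
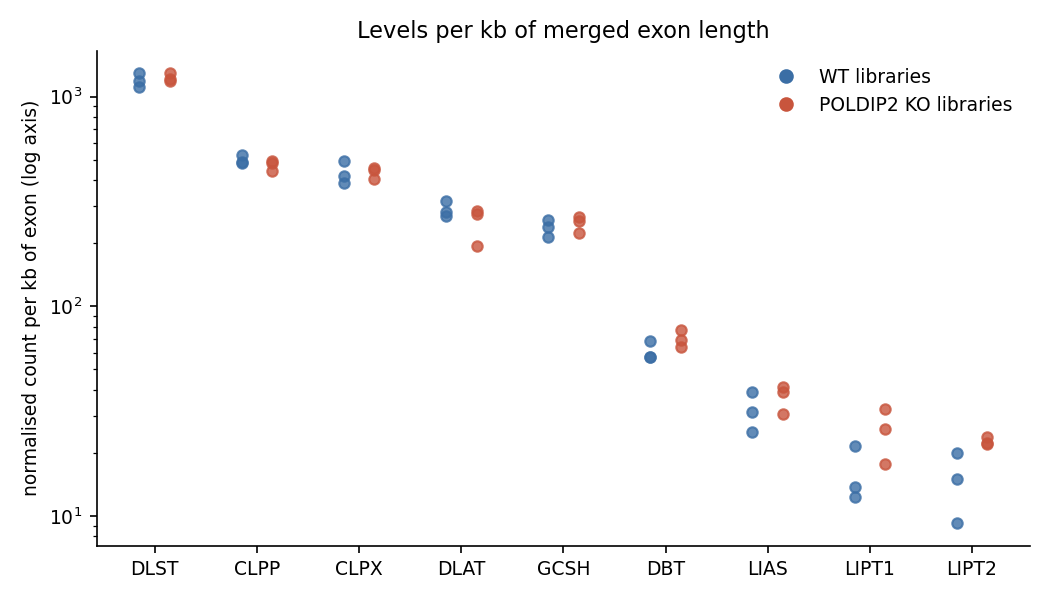
Normalised count per kb of merged exon length (y axis, log scale) of the 9 tested genes in the WT libraries (blue points) and POLDIP2 KO libraries (red points), in descending order of the mean. DLST lies between 1112 and 1293 and LIPT2 between 9.25 and 23.9.

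The tested genes with the profile most like that of LIAS over the 6 libraries, by the root mean square difference of centred log2 values, were ATP5F1B (0.0385), a subunit of the mitochondrial ATP synthase, MTND4P12 (0.0409) and ATCAY (0.0578). ATP5F1B had 15949, 19341 and 23839 normalised counts in WT against 18656, 22765 and 24499 in POLDIP2 KO, with replicate 1 the lowest in both lines as for LIAS. For CLPX they were UBAP1 (0.0236), GPALPP1 (0.0312) and BMS1P1 (0.0351). Many genes were almost as close, with 55 genes within 0.1 of LIAS and 691 within 0.1 of CLPX.

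The genes around the set were taken from 8 lists with 71 genes, 64 of which passed the filter. By limma 0 of the 64 were called in either direction, against 0.170% of all tested genes, and 0 had an unadjusted p value under 0.05, against 6.48%. Both edgeR and DESeq2 on the recovered reads called 0 as well. Their median log2 fold change was 0.021, and 35 were above 0 and 29 below, against 7334 above and 7350 below over all tested genes.

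The octanoyl chain that LIAS uses comes from mitochondrial fatty acid synthesis, of which 7 of 8 genes were tested with a median log2 fold change of 0.047. CBR4, a subunit of the ketoacyl reductase, had 639.6, 645 and 554 normalised counts in WT against 716, 676 and 792 in POLDIP2 KO, without overlap (log2 fold change 0.25, limma adjusted p = 0.926). ACSF3, which makes malonyl-CoA in mitochondria, had a log2 fold change of -0.27 with an interval from -0.82 to 0.27. NDUFAB1, the acyl carrier protein, had 1552 ± 78.5 in WT and 1605 ± 113 in POLDIP2 KO (± SD, n = 3 libraries each) and differed by 0.05 on the log2 scale. HSD17B8, the partner of CBR4, was listed at 0 in every library.

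Of the 15 genes of iron-sulfur cluster assembly, which supplies LIAS, all were tested, and the median log2 fold change was -0.016 with a range from -0.17 to 0.17. ISCA2, an assembly factor, marked the lower end at -0.17 (interval -0.50 to 0.15), and ISCU, the scaffold on which clusters form, the upper end at 0.17 (interval -0.21 to 0.56). For 13 of the 15 the interval lay within 1.5-fold in either direction.

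The partner subunits of the lipoylated proteins gave 12 tested genes with a median of 0.005. DLD, which reoxidises the lipoyl group in all of these complexes, showed a mean of 3055 ± 123 normalised counts in WT against 3024 ± 209.9 in POLDIP2 KO (± SD, n = 3 libraries each) and differed by -0.02 on the log2 scale (interval -0.25 to 0.22). PDHA1, a catalytic subunit of the pyruvate dehydrogenase complex, had a log2 fold change of -0.02 (interval -0.33 to 0.29) and OGDH, which plays that role for alpha-ketoglutarate, of 0.03 (interval -0.34 to 0.39). BCKDHB, of the branched-chain complex, had 0.21 (interval -0.13 to 0.56) and OGDHL, a relative of OGDH, -0.49 (interval -1.32 to 0.35). Among the 10 kinases, phosphatases and other regulators of the complexes the median was 0.072, and PDK1 and PDK2, kinases that switch off pyruvate dehydrogenase, stood at 0.27 and 0.17 on the log2 scale (limma adjusted p = 1 for both).

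Of the relatives of ACSM1, only ACSM3 of 6 genes passed the filter, with 36.8, 127 and 41.8 normalised counts in WT against 28.3, 81.4 and 80.4 in POLDIP2 KO, a spread within each line that spans more than the difference of the means (log2 fold change -0.03, interval -1.48 to 1.43). ACSM2A and ACSM2B, which are near-identical copies, had at most 16 reads, and ACSM4 and ACSM5 were listed at 0.

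The other mitochondrial proteases, 12 genes with a median log2 fold change of 0.064, held 2 genes without overlap between the lines, both higher in POLDIP2 KO, where 5.46% of all tested genes were higher without overlap. SPG7, a subunit of an inner membrane protease, had 3062, 2922 and 2996 normalised counts in WT against 3446, 3211 and 3627 in POLDIP2 KO (log2 fold change 0.19, interval -0.03 to 0.42, limma adjusted p = 0.867). IMMP2L, of the inner membrane peptidase, had 329.7, 382 and 253 in WT against 402, 433 and 387 in POLDIP2 KO (log2 fold change 0.36, interval -0.09 to 0.81, limma adjusted p = 0.922). LONP1, the other large protease of the matrix, had a log2 fold change of -0.06 with an interval from -0.30 to 0.17. The list of matrix chaperones, which holds LONP1 again and HSPA9 of the iron-sulfur list, had a median of -0.048 over 7 tested genes. In it HSPD1, which folds imported proteins, had 11485, 14139 and 12579.6 normalised counts in WT against 8273, 16075 and 11301 in POLDIP2 KO (log2 fold change -0.15). DNAJA3, another chaperone of the list, was listed at 0 in every library.

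ALAS1 and ERAL1 are known clients of CLPXP, the first an enzyme of heme synthesis and the other a factor of mitochondrial ribosome assembly. ALAS1 had 1077, 1973 and 2107 normalised counts in WT against 972, 1486 and 1595 in POLDIP2 KO. It was lower in POLDIP2 KO in each of the 3 pairs, as were 15.7% of all tested genes. Its log2 fold change was -0.32 (interval -1.03 to 0.39, limma adjusted p = 1). In the limma fit blocked on the replicate number the interval was -0.58 to -0.06 (unadjusted p = 0.0249). An unadjusted p value under 0.05 was found for 11.1% of all tested genes in that fit, and the adjusted p value of ALAS1, 0.344, did not pass. ERAL1 had a log2 fold change of -0.08 with an interval from -0.36 to 0.21.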

How the data were processed

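Polyadenylated RNA of 3 WT and 3 POLDIP2 KO libraries was sequenced with a stranded kit. The signal values were deposited by the authors as normalised counts: Salmon 1.8 estimated transcript counts on GRCh38, tximport gathered them by gene, and DESeq2 (1.34.0) scaled each library by its size factor, with the annotation release not given in the sources used here. Symbols came from GENCODE release 44 (34152 of 37902 genes), and 0 columns were left out. Dividing each column by its smallest value above 0 recovered reads, 100% whole within 0.001. Where that step lies near 1, in WT replicate 2 and POLDIP2 KO replicate 3, wholeness is a weak check.

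Limma 3.58.1 (R 4.3.3) was run with lmFit and eBayes with trend on all genes with a mean of at least 10. EdgeR 4.0.16 and DESeq2 1.42.0 on recovered reads, and summed loci, were added after seeing the data. Same-numbered libraries, centred within lines, correlated at 0.315, 0.137 and 0.129 across genes and differently numbered ones at -0.259 to 0.147. Every same-numbered value was over 0.1, the limit used for pairing, so the replicate block was an alternative. WT replicate 3 with POLDIP2 KO replicate 2 was over it too, at 0.147, so the limit does not single out same-numbered libraries. Alternatives also covered pseudocounts of 0.5 and 5, filters, normalisation, eBayes without trend and each library left out. The fits were tested on simulated data. Figures used matplotlib 3.10.9. Named genes were the 10 genes, POLDIP2, the 2 genes of each list with the smallest p value, 8 genes chosen for their roles, and the profiles most like LIAS and CLPX. Members and lists were chosen with earlier results of these data known. No protein sequence table was used here. The lipoyl-lysine sites were found by translating the coding bases and searching them for short amino acid motifs. Of the markers, 1 is not reported here on its own.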

Additional observations from a re-analysis of the deposited data

How the results depend on the processing

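The count of 0 called genes in the set, and of 0 at an unadjusted p value under 0.05, was the same in all 18 alternatives, the fits without 1 library included, and 0 genes of the lists around it were called in any. With the replicate block, and in edgeR with that block, 1 gene of those lists had an unadjusted p value under 0.05, and 0 to 1 did with a library left out. The block changed no call in the set. A mean of at least 50 left LIPT1 and LIPT2 untested. Over all tested genes, 12 higher and 13 lower calls became 111 and 137 with DESeq2 and 3 and 2 with edgeR and the replicate block, edgeR without it gave 8 lower, and a mean of at least 50 gave 6 lower. Without 1 library there were 0 to 3 higher and 0 to 2 lower, with 0 in both directions without replicate 2 or 3 of either line, so POLDIP2 (log2 fold change -2.07 to -1.91) was not called there either. The sign of near-zero log2 fold changes turned with the library left out for CLPX (-0.06 to 0.11), DLST (-0.01 to 0.10), DLD (-0.05 to 0.04), PDHA1 (-0.10 to 0.08), OGDH (-0.06 to 0.17), NDUFAB1 (-0.01 to 0.09), ERAL1 (-0.13 to 0.02), HSPD1 (-0.39 to 0.09) and ACSM3 (-0.35 to 0.53, and 0.01 with quantile normalisation). The cause was not tested. With 3 libraries a line, the intervals of LIPT1 and LIPT2 were the widest of the set.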
